A study of Mus musculus with 4 samples.

Results

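General capillary endothelial cells of the aged mouse lung differed in how many interferon-induced genes were seen per cell, and those with the most are described here. A cell was counted as interferon-high when at least 3 of the 5 genes Ifit1, Ifit3, Ifi44, Oasl2 and Cmpk2 had a unique molecular identifier (UMI, 1 captured RNA molecule). It was counted as general capillary when it had a UMI of Cdh5, of at least 3 of Gpihbp1, Plvap, Kit, Sema3c and Aplnr, of fewer than 2 of the aerocyte genes Ednrb, Apln and Fibin, and no UMI of Slc6a2, Gja5, Prox1 or Ptprc. The cells were thus chosen by measured RNA of these genes. There were 3136 such cells among 15209 general capillary cells and 68675 kept cells in all. The other 12073 general capillary cells, with 0 to 2 of the 5 genes, are called interferon-low.

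The cells came from lungs of male C57BL/6 mice. In the BPTES group, mice that were 19 months old received the small-molecule inhibitor of that name for 1 month. In the DMSO group, mice of the same strain, sex and age received the vehicle for the same time. Each group had 2 single-cell libraries made with the GEM-X 3′ chemistry. Lungs were digested with Liberase for 1 h, and 20000 CD45-negative and 9000 CD45-positive sorted cells were combined per library, so that the sort fixed the ratio of immune to other cells. The labels do not say how many animals stand behind a library, so p-values over libraries measure only the spread between these libraries.

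Type I interferons bind the receptor made of IFNAR1 and IFNAR2, whose kinases JAK1 and TYK2 activate a transcription factor complex that contains STAT2 and IRF9. It binds the interferon-stimulated response element (ISRE) upstream of antiviral genes, while interferon gamma acts through its own receptor and through IRF1 and is the classical inducer of guanylate-binding proteins, immunity-related GTPases and antigen presentation genes. General capillary cells line most of the alveolar capillary bed and can renew it, and aerocytes are the thin capillary cells at the gas-exchange surface.

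The rule's genes include members of this pathway with the element in their promoters. RefSeq promoters (build GRCm38.p6, 250 bases before to 50 after the start) were matched by symbol and searched on both strands for a core of the element, TTTC, any 2 bases and TTTC again (on the other strand GAAA, any 2 bases and GAAA); overlapping matches were counted. All 5 interferon genes of the rule were matched and 2 of them, Ifit1 and Ifit3, held the motif. The windows below show these sites and those of genes outside the rule that the results turn on, 5′ to 3′ on the gene's strand, with the matched bases in capitals.
Ifit1: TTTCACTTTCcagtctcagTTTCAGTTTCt
Ifit3, upstream site: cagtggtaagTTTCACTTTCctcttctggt
Ifit3, downstream site: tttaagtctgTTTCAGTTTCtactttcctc
Ifit3b, upstream site: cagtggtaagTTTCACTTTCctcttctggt
Isg15: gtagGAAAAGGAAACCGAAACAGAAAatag
Rsad2: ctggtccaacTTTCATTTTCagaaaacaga
Gbp5: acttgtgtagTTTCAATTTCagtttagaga
The Ifit1 window is chr19:34640785-34640814 on the + strand and holds 2 matches, the first of them 104 bases before the start. The Ifit3 windows are chr19:34583363-34583392 and chr19:34583397-34583426 (+ strand). The Ifit3b window at chr19:34607759-34607788 (+ strand) has the same 30 bases as the upstream window of Ifit3, its near-identical neighbour. The Isg15 window at chr4:156200871-156200900 (− strand) holds 3 overlapping matches, the Rsad2 window at chr12:26456553-26456582 (− strand) holds 1, and the Gbp5 window at chr3:142496759-142496788 (+ strand) holds 1. All lie upstream of the start, outside the transcript.

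The 4 libraries held 260346570 to 342107092 UMIs, and 15349 to 20549 barcodes each were kept. Between any pair of libraries, 65 to 104 kept barcode sequences were shared, 0.392% to 0.642% of the kept barcodes of one library of the pair. UMIs of genes that passed the filter on low counts, the rule's genes included, were counted in interferon-high cells. They numbered 14381149 in BPTES 1, 8053685 in BPTES 2, 8822173 in DMSO 1 and 16714198 in DMSO 2. Doublets were not removed by a caller. A rule that left out every barcode with a UMI of at least 2 markers of 1 other lineage would have dropped 82.8% to 95.9% of the interferon-high cells and 76.4% to 92.7% of the interferon-low cells, and the epithelial marker Sftpc alone had a UMI in 57.5% to 96.3% of the former. A narrower rule, added after the data were seen, left out barcodes with at least 10 UMIs of each of 2 or more markers of 1 other lineage, which were 24, 17, 17 and 30 interferon-high cells in BPTES 1, BPTES 2, DMSO 1 and DMSO 2.

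The label of capillary endothelium was checked on genes the rule did not use. Pecam1, Cldn5 and Tek, which encode endothelial junction and receptor proteins, had a UMI in 98.6% to 100% of the interferon-high cells of each library. Among cells with Ptprc and no Cdh5 their shares were 50.6% to 55.9%, 6.45% to 9.42% and 5.27% to 7.52%, so Pecam1 separated the 2 less. Defining markers of other lineages differed in how often they were seen: Cd3e of T cells was found in 0.347% to 0.639%, Epcam of epithelium in 0.516% to 1.37%, Mmrn1 of lymphatic endothelium in 0.202% to 1.44% and Msln of mesothelium in 0% to 0.173%. Cd79a of B cells reached 5.11%, Csf1r of macrophages 3.43%, Col1a1 of fibroblasts 7.28% and Pf4 of platelets 1.82%. Other markers of the same lists were common, with Sftpc as given above and the immunoglobulin gene Igkc in 32.5% to 46.03% of these cells. At least 2 epithelial markers had a UMI in 62.4% to 91.7% and at least 2 myeloid markers in 38.8% to 46.1% of them, against 55.3% to 87.7% and 30.6% to 35.4% of interferon-low cells. The share with Gpihbp1, a marker the rule did use, was 97.2% to 99.1%, against 4.30% to 6.47% of cells with Ptprc and no Cdh5. Car4, which is high in aerocytes, had a UMI in 58.2% to 67.8%, Gja4, an arterial gene, in 68.9% to 79.2%, and Vwf, a gene of larger vessels, in 60.2% to 78.7%. In cells with Ptprc and no Cdh5, at medians of 14528.5 to 16982.5 UMIs, these shares were 2.61% to 3.89%, 1.44% to 1.77% and 8.25% to 11.02%. The same 3 genes were found in 52.3% to 56.9%, 61.7% to 73.7% and 54.0% to 71.7% of the shallower interferon-low cells.

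The 5 genes that chose the cells are given as a description. Oasl2, a 2′-5′-oligoadenylate synthetase-like gene, was the most often seen, in 94.8%, 95.4%, 95.7% and 95.4% of interferon-high cells of BPTES 1, BPTES 2, DMSO 1 and DMSO 2. Ifit1, which encodes a protein that binds foreign RNA caps, was found in 72.3%, 74.1%, 75.9% and 75.6%. The others, Ifit3, Ifi44 and the mitochondrial nucleotide kinase gene Cmpk2, were found in 62.6% to 72.4% of these cells. Under the rule the interferon-low cells also held such RNA: Oasl2 was found in 31.4% to 40.7% and Ifit1 in 7.97% to 12.1% of them.

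The number of the 5 genes seen in a cell had no gap at the threshold. Of the general capillary cells of BPTES 1, 1201 had 0 of the genes, 1080 had 1, 598 had 2, 451 had 3, 303 had 4 and 215 had 5. Cells just outside the threshold, with 2 genes, numbered 598, 464, 633 and 895 in BPTES 1, BPTES 2, DMSO 1 and DMSO 2, and cells just inside it, with 3 genes, numbered 451, 254, 271 and 507. The interferon-high cells are therefore described as a range cut from a per-cell count. Whether they form a population of their own was not tested, since sparse UMIs would spread a distinct subset over several counts too. They were also deeper: their median was 14041 to 15092 UMIs by library, against 11696.5 to 12984 in interferon-low cells. Mitochondrial shares were similar, with medians of 1.16% to 1.35% and 1.22% to 1.47%.

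The share of general capillary cells that were interferon-high was 25.2% in BPTES 1 (969 of 3848 cells, exact binomial 95% interval 23.8% to 26.6%) and 14.9% in BPTES 2 (495 of 3332, 13.7% to 16.1%). It was 18.2% in DMSO 1 (577 of 3178, 16.8% to 19.5%) and 22.6% in DMSO 2 (1095 of 4851, 21.4% to 23.8%). The highest and the lowest shares both came from BPTES libraries, and the groups overlapped. The BPTES mean was 20.02% ± 7.30 and the DMSO mean 20.4% ± 3.12 (SD, n = 2 libraries each), a difference of -0.35 percentage points. A two-sided exact permutation test gave p = 1, and with 2 libraries against 2 it cannot go below 0.333. The intervals cover counting error only, and they are narrower than the gap between the 2 libraries of either group. The sign of the difference turned without BPTES replicate 2 (4.82 points) and without DMSO replicate 2 (1.86 points). With a threshold of 2 of the 5 genes the shares were 40.7% and 28.8% with BPTES and 38.1% and 41.02% with DMSO, so that the highest was a DMSO library. The difference was then -4.80 points (34.8% ± 8.44 against 39.5% ± 2.08, SD, n = 2 each, exact permutation p = 0.667), and the groups still overlapped.

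Depth was equalised by thinning each cell to 3000 UMIs before the 5 genes were read, with 103 to 210 shallower cells per library left out. The interferon-high share was then 7.17%, 3.55%, 4.98% and 6.23% in BPTES 1, BPTES 2, DMSO 1 and DMSO 2, which kept the order of the libraries. The group means were 5.36% ± 2.56 and 5.60% ± 0.885 (SD, n = 2 each, exact permutation p = 1). The size of the class thus depends on the depth at which it is read, and the order of the 4 libraries was the same at both depths.

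The same reading was made in the other endothelial cells of each library, gated by Slc6a2 (venous, 2027 cells), Gja5 (arterial, 2594 cells) or at least 2 of Ednrb, Apln and Fibin (aerocytes, 1540 cells). At 3000 UMIs the share in general capillary cells, 5.48% ± 1.57 (SD, n = 4 libraries), lay between those of venous cells, 7.05% ± 2.15, and aerocytes, 4.02% ± 2.19, with arterial cells lowest at 3.14% ± 1.53. Venous cells were above general capillary cells in 4 of 4 libraries, by 1.57 percentage points (SD of the difference 0.682). General capillary cells were above arterial cells in 4 of 4 libraries by 2.34 points (SD 0.609) and above aerocytes in 4 of 4 by 1.47 points (SD 1.02). Each of the 3 paired exact permutation tests gave p = 0.125, the smallest 4 pairs allow, and 0.125 after Benjamini-Hochberg adjustment over the 3. The order of venous and general capillary cells was tied to the threshold. With 4 of the 5 genes at 3000 UMIs the venous shares were 2.22%, 1.00%, 3.28% and 1.54% in BPTES 1, BPTES 2, DMSO 1 and DMSO 2 (5 to 13 cells each), and those of general capillary cells 2.65%, 1.12%, 1.53% and 2.20%. Venous cells were then above in 1 of 4 libraries, and the general capillary minus venous difference was -0.14 points (exact permutation p = 1). Before thinning, aerocytes were higher than general capillary cells in 3 of 4 libraries (difference -1.44 points), and aerocytes had medians of 17093 to 17938 UMIs against 12158.5 to 13341.5 in general capillary cells.

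Cells outside the endothelium gave the background for these shares. At 3000 UMIs, 0.389% to 0.774% of cells with Ptprc and no Cdh5 and 0.286% to 0.837% of cells with Pdgfra and no Cdh5 passed the 3-gene threshold. Their shares were 2.18% to 4.004% and 3.24% to 6.60% with all UMIs, at median depths of 14528.5 to 16982.5 and 19251 to 21166 UMIs. In each library these shares lay below those of all 4 endothelial types at both depths.

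**Figure D1:**
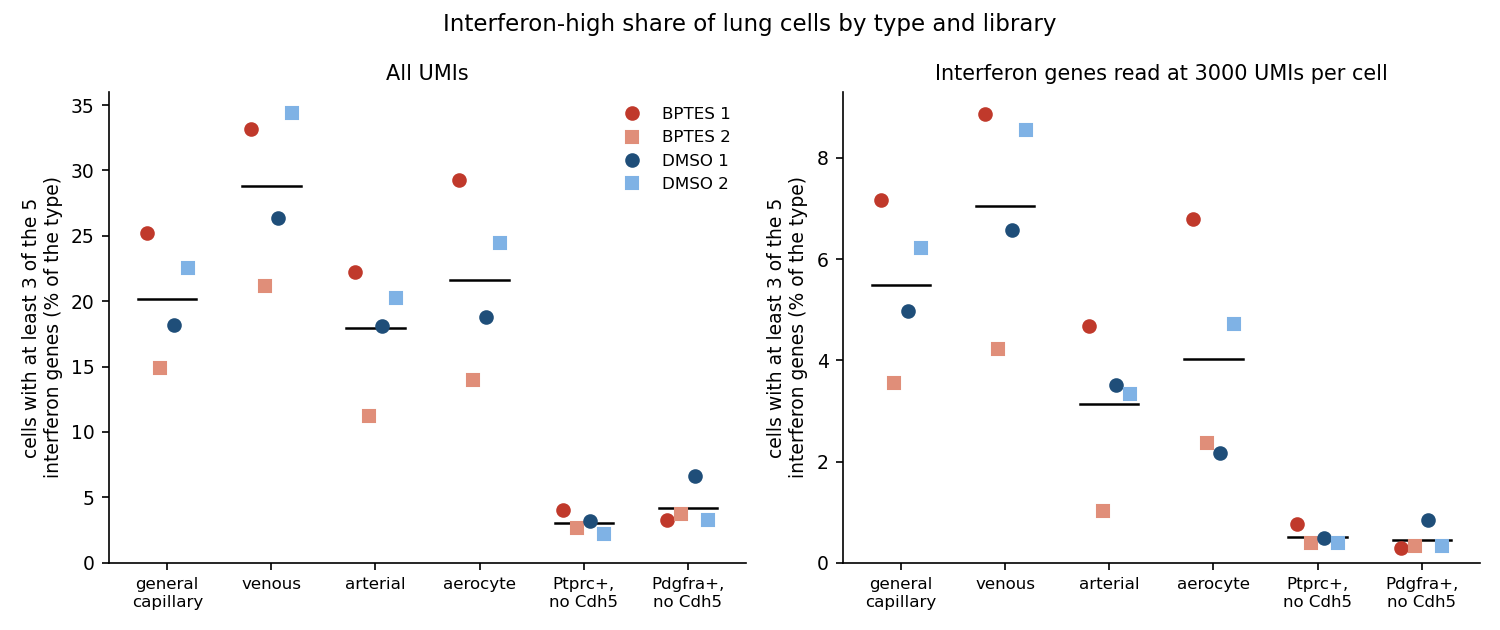
Share of cells with a UMI of at least 3 of the 5 interferon genes (% of the cell type, y axis) in 4 endothelial types and 2 comparison populations, with all UMIs on the left and with the genes read at 3000 UMIs per cell on the right. Each point is a library and each line the mean of the 4 libraries. In general capillary cells BPTES 1 is highest at 25.2% and BPTES 2 lowest at 14.9%, with both DMSO libraries between them.

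Which other genes differed between interferon-high and interferon-low cells of the same library was asked across 15694 genes outside the rule. UMIs were summed by library and state, and edgeR's quasi-likelihood test with the library as a block was used, with a call at a Benjamini-Hochberg adjusted p under 0.05. There were 417 calls (2.66% of the genes tested), of which 334 were higher (2.13%) and 83 lower (0.529%) in interferon-high cells, and DESeq2 called 555 (3.54%). Of all genes tested, 53.4% had a log2 fold change below 0, 81 (0.516%) were called higher by at least 1 and 6 (0.0382%) were called lower by at least 1 on the log2 scale. The lower calls were the less stable: they numbered 59 without BPTES 1, 38 without BPTES 2, 22 without DMSO 1 and 28 without DMSO 2, beside 221 to 282 higher calls. There were 380 lower and 578 higher with a threshold of 2 of 5 genes, 4 and 113 without marker doublets, and 1 and 152 with no library block. All 334 higher genes and 82 of the 83 lower genes had the same direction in 4 of 4 libraries. The median log2 fold change was 0.57 over the higher genes and -0.20 over the lower genes, so the increases were larger. The interferon and antigen presentation lists held 88 of the 334 higher genes and 0 of the 83 lower genes. The type I, GTPase, receptor, sensor, MHC class I and class II lists had 48, 20, 13, 10, 20 and 7 of the 15694 genes tested. That is so small a part that the 0 of 83 says little. Interferon-induced genes are induced together with the 5 genes of the rule, so their direction here is a description of the cells chosen and no independent finding.

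Of the type I interferon-stimulated genes outside the rule, 48 of 50 were tested, 46 were higher and 0 lower, with a median log2 fold change of 1.22 against -0.01 over all genes. The ubiquitin-like protein gene Isg15 (ENSMUSG00000035692) stood at 237, 219, 232 and 191 CPM (UMIs scaled to equal library size) in interferon-high cells of BPTES 1, BPTES 2, DMSO 1 and DMSO 2 and at 40.7, 34.7, 42.6 and 39.1 CPM in interferon-low cells. All 4 values of one state lay above all 4 of the other, and Isg15 was higher by 2.48 on the log2 scale (SE 0.0574, edgeR adjusted p = 2.00e-06). Rsad2 (ENSMUSG00000020641), which encodes the antiviral enzyme viperin, stood at 69.1, 62.5, 63.1 and 91.3 CPM against 10.4, 5.74, 10.1 and 10.1 CPM. Its log2 fold change was 2.99 (SE 0.123, edgeR adjusted p = 9.74e-06). Rsad2 had a UMI in 29.1% to 35.3% of the interferon-high cells of a library. The 2 richest of these cells held 14.4% to 26.9% of its UMIs there, against 1.73% to 5.53% for Isg15. Irf7, the transcription factor that amplifies type I interferon production, stood at 67.8, 48.7, 56.1 and 55.1 CPM against 16.1, 9.91, 14.3 and 14.6 CPM, a log2 fold change of 2.06. The largest of the named increases was that of Ifit3b, at 50.8 CPM ± 5.73 against 4.27 ± 1.38 (SD, n = 4, log2 fold change 3.58). Reads of Ifit3b and of its near-identical neighbour Ifit3, a gene of the rule, may not be separable, so this value is uncertain.

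Other genes of the list cover the steps of the response. The transducer genes Stat2 and Irf9 were higher by 0.93 and 0.82 on the log2 scale, and Stat2 stood at 232 CPM ± 8.58 against 123 ± 13.1 (SD, n = 4). Usp18, the protease that removes Isg15 from proteins and restrains IFNAR2, was higher by 2.18. Oasl1 and Oas1a, of the oligoadenylate synthetase family, were higher by 2.64 and 1.90, Ifit2 by 1.88, and the receptor transporter gene Rtp4 by 1.69. Mx1, an antiviral GTPase, was low in both states, at 2.37 CPM ± 1.01 and 0.344 ± 0.0892 (SD, n = 4), and was called with a log2 fold change of 2.72. Cxcl10, a chemokine that attracts T cells, was higher by 1.76, but its level in interferon-high cells ran from 5.99 CPM in BPTES 1 to 34.6 CPM in BPTES 2. The 2 richest interferon-high cells of a library held 19.2% to 59.9% of its Cxcl10 UMIs there. The tested genes of this list that were not called were Oas3 and Epsti1. Trex1 was not tested with or without the filter on low counts, and Mx2 was not analysed here.

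The 12 called genes of largest increase were ranked among those with a mean of at least 20 CPM in interferon-high cells. Of these 12, 4 stood outside these lists or in the GTPase list: Ifi206 (log2 fold change 2.11), Apol9b (2.04), the Schlafen gene Slfn2 (1.94) and the guanylate-binding protein gene Gbp6 (1.80). All 12 were called in each of the 4 fits that left out 1 library.

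**Figure D2:**
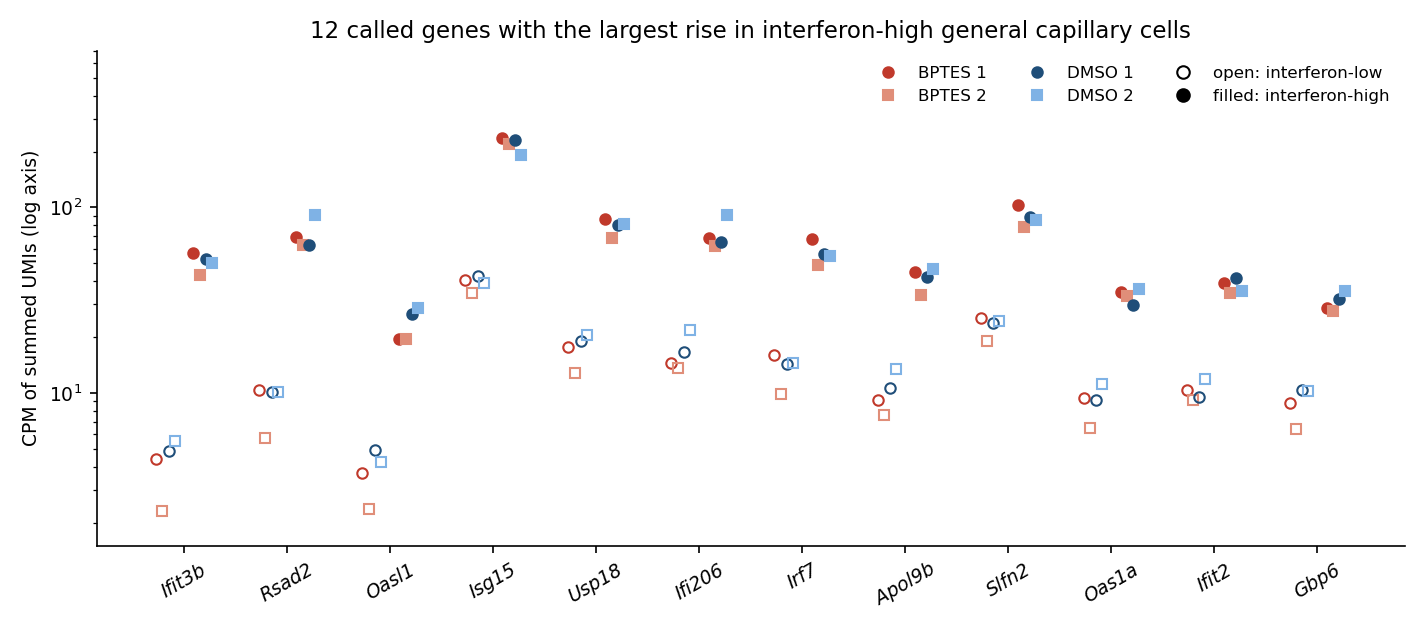
Levels in CPM (log axis) of 12 called genes in interferon-high and interferon-low cells. They have the largest increase among called genes with a mean of at least 20 CPM in interferon-high cells. Each point is 1 library, filled for the interferon-high and open for the interferon-low state. For each of the 12 genes the 4 filled points lie above the 4 open points, for Isg15 at 191 to 237 CPM against 34.7 to 42.6 CPM.

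Interferon-gamma-inducible GTPases and Irf1 formed the next group, in a list that also held Ciita, Cd274, Cxcl9 and Ido1. It is called the GTPase and Irf1 list throughout. Of its 20 tested genes 18 were higher, 0 were lower, and the median log2 fold change was 1.05. The guanylate-binding protein genes Gbp5 and Gbp3, whose products act on pathogen vacuoles and inflammasomes, were higher by 1.47 and 1.46. Gbp5 stood at 48.9, 45.7, 68.6 and 69.6 CPM in interferon-high cells and at 17.5, 15.2, 27.3 and 24.4 CPM in interferon-low cells of the 4 libraries. The immunity-related GTPase gene Igtp was higher by 1.44 and Iigp1 (ENSMUSG00000054072) by 1.15 (579 CPM ± 154 against 264 ± 85.3, SD, n = 4). The transcription factor gene Irf1 differed less, by 0.33 (SE 0.0274, edgeR adjusted p = 5.65e-04). Cxcl9 and Ido1, both strongly inducible by interferon gamma in many cells, were the 2 genes not called. Cxcl9 had 2, 67, 16 and 14 UMIs in interferon-high cells of BPTES 1, BPTES 2, DMSO 1 and DMSO 2. The 2 richest of these cells held 64.3% to 100% of its UMIs in a library, so the missing call says little.

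Genes of antigen presentation moved less than those of the antiviral lists. Of 20 MHC class I genes 16 were higher and 0 lower, with a median log2 fold change of 0.25. Nlrc5, the transactivator of class I genes, was higher by 0.88, the peptide transporter gene Tap1 by 0.70, and the non-classical class I genes H2-T24 and H2-T22 by 1.08 and 0.48. The abundant light chain gene B2m was higher by 0.19 (3134 CPM ± 217 against 2753 ± 164, SD, n = 4). The classical heavy chain gene H2-K1 had a log2 fold change of 0.09 and was not called (edgeR adjusted p = 0.0502). It was called (0.13 in both) in cells of 10000 to 30000 UMIs (adjusted p = 0.00643) and without the barcodes rich in other-lineage markers (adjusted p = 0.00115), where the class I count was 19 of 20. That count was 13 in each fit without 1 library, 5 without marker doublets and 7 with no library block. Of 7 MHC class II genes, H2-DMa was higher (0.17), and it was called in none of the 4 fits that left out 1 library.

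The receptor and its kinases did not pass the test. Of 13 genes of receptors and signalling 2 were higher, with a median log2 fold change of 0.06, and these were the feedback inhibitors Socs1 (0.62, 41.5 CPM ± 12.7 against 26.9 ± 7.41, SD, n = 4) and Socs3 (0.21). The log2 fold changes of genes for the receptor chains and kinases that were not called were 0.04 for Ifnar1, 0.08 for Ifnar2, 0.13 for Jak1 and -0.05 for Ifngr1. Of 10 tested nucleic acid sensors and adaptors 5 were higher and 0 lower (median 0.34). These included the RNA editing enzyme gene Adar (0.88), the nucleotide hydrolase gene Samhd1 (0.61), the DNA sensor gene Mb21d1 (0.58) and the RNA sensor gene Tlr3 (0.37). Socs3 and Tlr3 lost their calls without BPTES 1, DMSO 1 or DMSO 2.

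Interferon RNA itself was nearly undetected. None of the 19 interferon ligand genes passed the filter on low counts. Summed over these genes, interferon-high cells held 19 UMIs of 48047029 and interferon-low cells 25 of 146016276. Of the 19 UMIs, 15 were Ifnb1, the gene of interferon beta, and they came from 1 cell. Ifng, the gene of interferon gamma, had 2 UMIs in interferon-high cells, 16 in interferon-low cells and 5769 in all kept cells.

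Lower genes had smaller changes. The taurine transporter gene Slc6a6 stood at 273, 250, 292 and 247 CPM in interferon-high cells of BPTES 1, BPTES 2, DMSO 1 and DMSO 2 and at 326, 331, 375 and 308 CPM in interferon-low cells (log2 fold change -0.33, SE 0.0311, edgeR adjusted p = 0.00103). Cdk19 (ENSMUSG00000038481), a kinase of the Mediator complex, stood at 167, 154, 150 and 131 CPM against 212, 235, 209 and 167 CPM (log2 fold change -0.45). Plat, which encodes tissue plasminogen activator, stood at 82.4 CPM ± 7.93 against 102 ± 6.14 (SD, n = 4, log2 fold change -0.31). These 3 of the 12 named lower genes were called in each of the 4 fits that left out 1 library. The other named lower genes, with log2 fold changes of -0.40 to -0.27, were Cnnm2, Klf12, Amd1, Mgll, Ntrk2, Igkc, Edc3, Pcsk5 and Dennd2c, and each lost its call without at least 1 library. Dennd2c lost it in all 4 of those fits, and in cells of 10000 to 30000 UMIs Igkc (-0.15, adjusted p = 0.164) and Dennd2c (-0.21, adjusted p = 0.0529) were not called by edgeR.

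Genes of endothelial subtypes were read by list, beside calls of 2.13% higher and 0.529% lower over all genes. Of 25 general capillary genes outside the rule 4 were lower and 1 higher (median -0.07). Cxcl12, a chemokine of stromal and vascular cells, stood at 688, 719, 536 and 485 CPM in interferon-high cells and 804, 827, 617 and 607 CPM in interferon-low cells (log2 fold change -0.24, SE 0.0276, edgeR adjusted p = 0.00367). Bmp6 (-0.19), Hmcn1 (-0.16) and the receptor gene Calcrl (-0.14) were lower and the stress-induced factor gene Atf3 (0.30) was higher. Of 12 genes listed as arterial 3 were lower, Mgll (-0.32), the ephrin gene Efnb2 (-0.22) and Sox17 (-0.17), and 0 higher (median -0.12). None of these 3 had its highest mean in the arterial cells of these libraries: Mgll was at 614 CPM in aerocytes against 198 in arterial cells, and general capillary cells held Sox17 at 320.0 CPM against 155 and Efnb2 at 591 CPM against 570.3 in arterial cells. Of 11 venous genes tested, Prss23 (0.34) and the leukocyte adhesion gene Vcam1 (0.67) were higher and 0 lower (median 0.26). Of 15 aerocyte genes 1, Tbx3 (-0.15), was lower, and of 7 lymphatic genes Lyve1 (0.14) was higher while Reln, at 0.219 CPM against 1.44 CPM, was lower. Without BPTES 2, DMSO 1 or DMSO 2, Bmp6, Hmcn1, Calcrl, Efnb2 and Sox17 were not called, Lyve1 lost its call without BPTES 1, DMSO 1 or DMSO 2 and Atf3 without DMSO 1, and Tbx3 was called in none of the 4 fits that left out 1 library. In cells of 10000 to 30000 UMIs Vcam1 (0.34, edgeR adjusted p = 0.377), Calcrl (-0.10, 0.0940) and Tbx3 (-0.11, 0.0912) were not called.

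Of 16 immediate early genes, which respond within minutes to stimuli that include tissue digestion, 15 had a log2 fold change above 0 (median 0.14) and 12 had an unadjusted p under 0.05, as had 15.8% of all genes tested. Of the 16, 5 were called higher and 0 lower, where 2.13% and 0.529% of all genes were: Egr1 (0.36, 1188 CPM ± 382 against 914 ± 237, SD, n = 4), Zfp36 (0.28), Fosb (0.24), Btg2 (0.24) and Junb (0.23). Egr1 lost its call without DMSO 1 and Fosb without DMSO 1 or DMSO 2. Zfp36 and Junb lost theirs without BPTES 2, DMSO 1 or DMSO 2, and Btg2 without BPTES 1, DMSO 1 or DMSO 2. Of 20 endothelial activation and clotting genes Icam1 (0.22) was higher and Plat lower. Of 14 senescence and p53 target genes the cyclin-dependent kinase inhibitor gene Cdkn1a was higher, at 416 CPM ± 25.1 against 344 ± 23.3 (SD, n = 4, log2 fold change 0.27, edgeR adjusted p = 0.0475). It was not called without BPTES 2, DMSO 1 or DMSO 2. None of 12 cell cycle genes, 20 genes of glutamine metabolism and transport or 14 ATF4 target genes was called by edgeR, with medians of 0.26, 0.03 and 0.06, and 0, 2 and 2 of them had an unadjusted p under 0.05, against 15.8% of all genes.

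Markers of other lineages were read beside these results, and their part in them was not tested. The summed level of 12 fibroblast, muscle and pericyte markers was 296, 711, 989 and 341 CPM in interferon-high cells of BPTES 1, BPTES 2, DMSO 1 and DMSO 2 and 292 to 359 CPM in interferon-low cells. Pdgfra was called higher (0.74) and Cspg4 lower (-1.71), with a median of 0.58, and each kept its call in 1 of the 4 fits that left out 1 library. Without the barcodes rich in other-lineage markers Pdgfra had a log2 fold change of -0.44 and was not called (edgeR adjusted p = 0.225), nor was Cspg4 (-1.62, adjusted p = 0.0887). Summed epithelial markers were at 1213 to 2987 CPM against 589 to 3263 CPM, and the 2 richest interferon-high cells held 52.0% to 93.0% of the Sftpc UMIs of a library. Myeloid markers summed to 244 to 617 CPM against 151 to 591 CPM with Plac8 (0.51) called higher of 12 tested but not without BPTES 1, and B and plasma cell markers to 35.8 to 70.2 CPM against 39.0 to 87.4 CPM with Igkc called lower of 8. Of 8 T and NK, 12 epithelial and 4 mesothelial markers tested, 0 were called by edgeR, with medians of -0.24, 0.30 and 0.68 and 1 gene of each list at an unadjusted p under 0.05. Of 7 platelet and erythroid markers (median -2.03) Hba-a2 was called lower. It had 0 UMIs in interferon-high cells and stood at 5.87, 0, 0.864 and 0.0899 CPM in interferon-low cells, and it was not called without BPTES 1 or DMSO 1. Without the barcodes rich in other-lineage markers, edgeR made 708 calls (528 higher and 180 lower). Of the 417 calls, 372 were made again, 369 of them in the same direction and 3 in the opposite one, and 26 of the 417 turned sign, called or not.

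**Figure D3:**
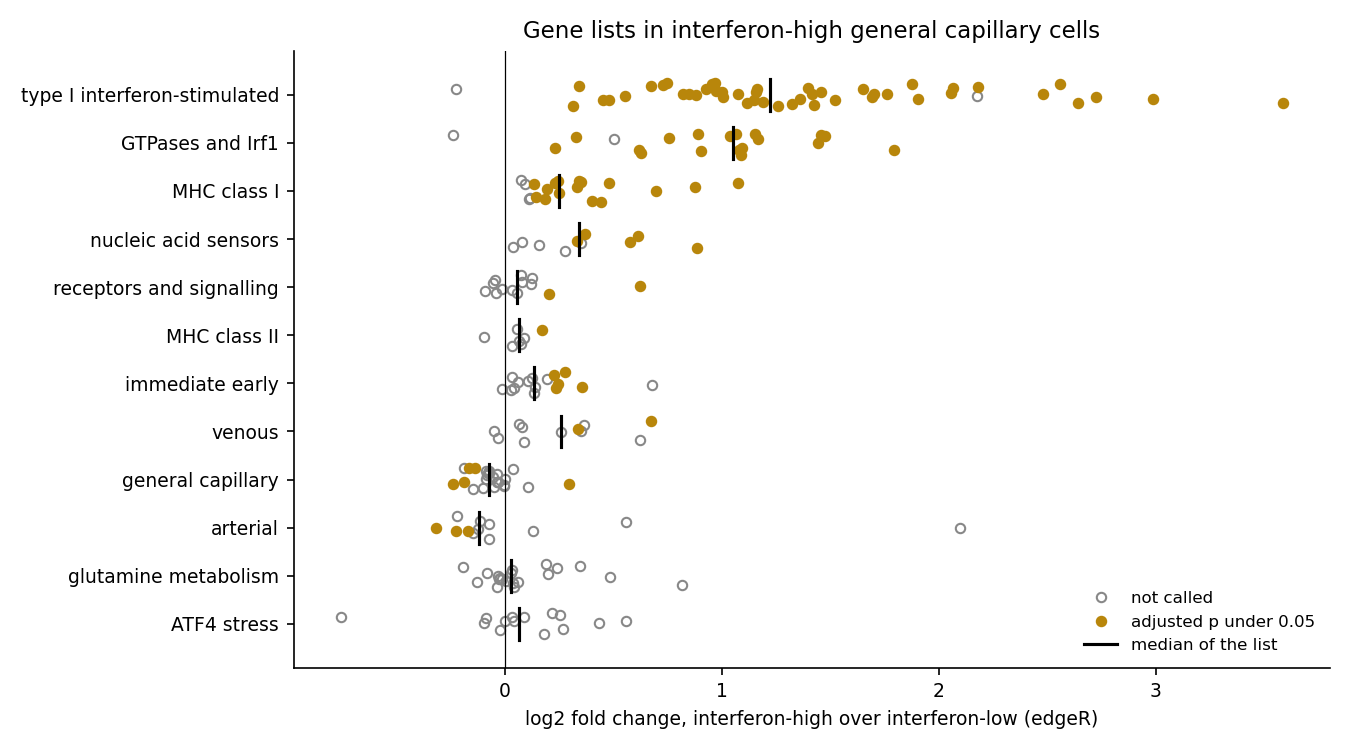
Log2 fold changes of interferon-high over interferon-low cells (x axis) for the tested genes of 12 lists (y axis). Each point is a gene, with called genes marked, and the bar is the list's median. The type I and GTPase lists have the largest medians, 1.22 and 1.05, with 1 gene of each below 0. The medians of the nucleic acid sensor, venous and class I lists are 0.34, 0.26 and 0.25, and those of the other 7 lists lie between -0.12 and 0.14.

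The levels followed the number of the 5 genes seen, which is the rule's own measure, so the series is a description. Mean Isg15 over the 4 libraries rose from 26.9 CPM in cells with 0 of the genes through 38.0, 59.8, 114 and 234 to 432 CPM in cells with 5. Iigp1 went from 188 CPM through 270, 365, 466 and 602 to 772 CPM. Slc6a6 went the other way, from 348 CPM at 0 through 339, 310, 294 and 257 to 214 CPM at 5. None of these 3 series had a step only at the threshold of 3.

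**Figure D4:**
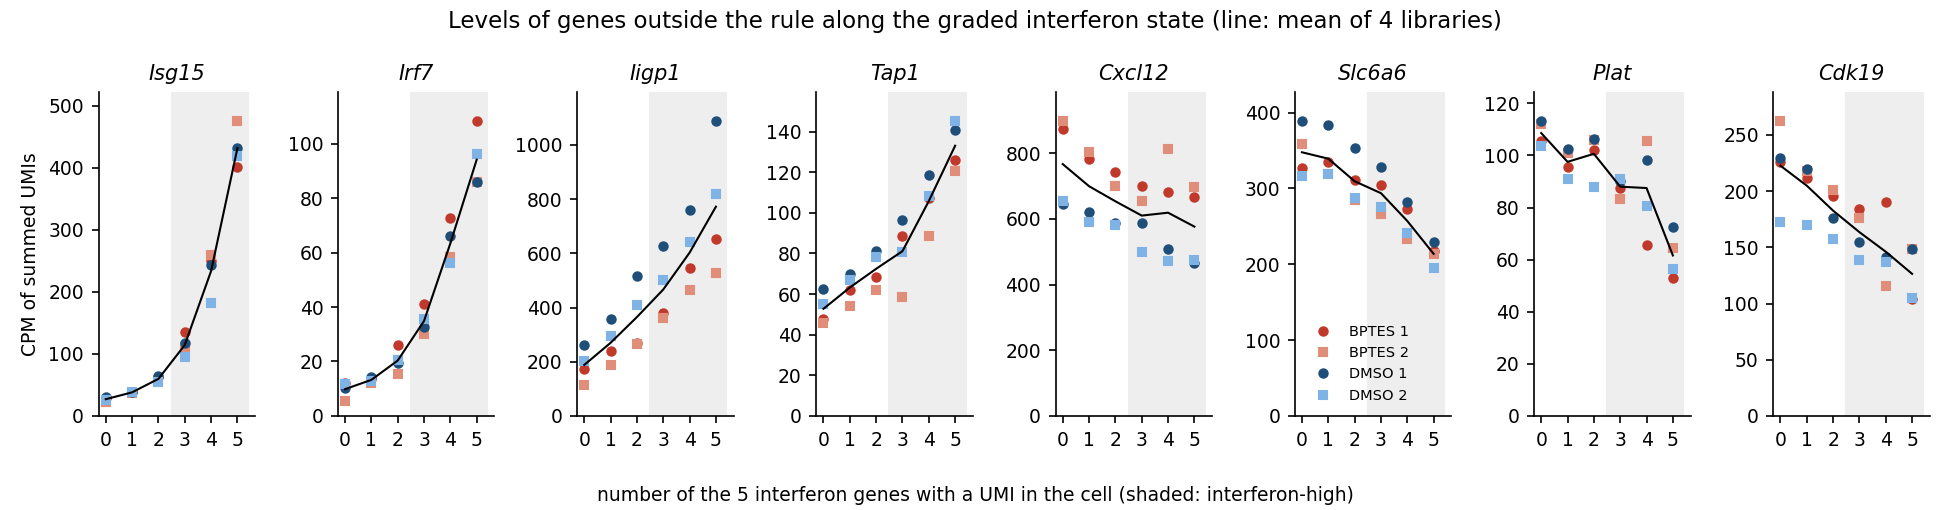
Level in CPM (y axis) of 8 genes by the number of the 5 rule genes with a UMI in a cell (x axis, 0 to 5). Points are libraries, the line is the mean of the 4 libraries, and shading marks the interferon-high class. Isg15 climbs from a mean of 26.9 to 432 CPM and Slc6a6 declines from 348 to 214 CPM, with no step only at 3.

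The motif shown in the promoters was counted over these gene groups as a description. Of the 334 higher genes 242 had a RefSeq promoter (GRCm38.p6), and 75 of them (31.0%) held this core on either strand, against 444 of 11474 matched genes tested (3.87%) and 1079 of 27025 genes of the whole table (3.99%). Of the genes higher by at least 1 on the log2 scale, 33 of 58 matched genes (56.9%) held it. Among the 83 lower genes it was found in 2 of 57 matched genes (3.51%). By list, it was in 18 of 37 matched type I genes, 9 of 13 GTPase and Irf1 genes and 5 of 16 class I genes. The windows printed for Isg15, Rsad2 and Gbp5 are members of this count, and a match does not show that a factor binds there. A second motif, the gamma-activated site (TTC, any 3 bases and GAA), was in 42 of 242 matched higher genes (17.4%) and 4 of 57 lower genes (7.02%). Its share was 8.48% of the matched genes tested. By list, this second motif was in 6 of 37 type I genes, 7 of 13 GTPase and Irf1 genes and 1 of 16 class I genes. Which interferon acted on the cells was not tested.

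Whether BPTES changed RNA levels within interferon-high cells was tested with 2 libraries against 2. By edgeR's quasi-likelihood test 0 of 13749 genes (0%) were called, and 1633 (11.9%) had an unadjusted p under 0.05. By DESeq2 68 genes (0.495%) were called, 30 of them higher and 38 lower with BPTES. In interferon-low cells 0 of 15875 genes (0%) were called by edgeR, where 3037 (19.1%) had an unadjusted p under 0.05, and 509 (3.21%) by DESeq2. The edgeR count there was 459 without BPTES 1, 14 without DMSO 1 and 0 without BPTES 2 or DMSO 2, and 1040 with a replicate block. The edgeR count for interferon-high cells was 41 without BPTES 1, 2 without DMSO 1, 2 without DMSO 2 and 0 without BPTES 2. In data simulated from these interferon-high profiles, changes were planted only in genes with a mean above 20 CPM, and counts were drawn at the fitted dispersion. The test recovered 59.7% of 67 changes of 1.5-fold, 95.5% of 67 of 2-fold and 100% of 66 of 4-fold, with 18 false calls. In the measured data Trim69 was not called at a log2 fold change of -0.93 (edgeR adjusted p = 0.347). The 0 calls therefore do not show that changes of this size were absent.

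Cells of both groups entered the 2 states by RNA of 5 type I genes, so the levels of other type I genes within a state are in part set by the rule and do not show whether BPTES moved them. They are given as a description. In interferon-high cells 26 of 48 tested type I genes had a log2 fold change below 0 with BPTES and 22 above, with a median of -0.02 against -0.01 over all genes, of which 51.1% had a value below 0. Both BPTES libraries lay below both DMSO libraries for 15 of them and above for 13, where 22.9% and 23% of all genes tested did so. In interferon-low cells 39 of 47 were negative (median -0.18), with 21 below and 3 above, where 51.5% of all genes were negative and 27.9% and 26.8% lay below and above. Over all general capillary cells, chosen without these genes, Isg15 stood at 98.2 and 68.5 CPM with BPTES and 85.4 and 81.4 CPM with DMSO, and Rtp4 at 105 and 71.9 CPM against 92.4 and 97.0 CPM, so that the groups overlapped for both. In interferon-high cells Isg15 stood at 237 and 220 CPM with BPTES and at 232 and 192 CPM with DMSO (log2 fold change 0.11, SE 0.108). The log2 fold changes of Stat2, Irf7, Rtp4, Bst2, Usp18, Ifit2 and Rsad2 were -0.00, 0.08, 0.04, 0.14, -0.06, -0.06 and -0.24. Mx1 stood at 1.60 and 1.40 CPM against 3.34 and 3.13 CPM (-1.09, edgeR adjusted p = 0.352), and Cxcl10 at 5.98 and 34.7 CPM against 27.5 and 28.6 CPM (-0.54). None of these genes was called by edgeR.

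The interferon-gamma-inducible GTPases and Irf1 were mostly below the DMSO level, without a call in edgeR's test. Of 20 tested genes 19 had a negative log2 fold change, with a median of -0.22, and both BPTES libraries were below both DMSO libraries for 15 (22.9% of all genes) and above for 0 (23% of all genes). In interferon-low cells of the same libraries 19 of 20 were negative (median -0.31), as were 51.5% of all genes, with 17 below (27.9% of all genes) and 0 above (26.8%). The 2 states come from the same libraries, so the second count is no independent repeat of the first. The rule also set these levels in part, since 18 of the 20 genes were higher in interferon-high cells. Over all general capillary cells, chosen without the 5 interferon genes, the list summed to 1916 and 1522 CPM with BPTES and 2357 and 2183 CPM with DMSO. These sums were divided by total UMIs only, without the normalization factors of the tests, and their difference between the groups was not tested. In interferon-high cells Irf1 stood at 451 and 416 CPM with BPTES and 623 and 560 CPM with DMSO (log2 fold change -0.45, SE 0.0872, edgeR adjusted p = 0.347). DESeq2 called Irf1 (adjusted p = 0.00696). It called 2 of the 20 genes lower in interferon-high cells and 6 in interferon-low cells, where it called 0.495% and 3.21% of all genes. With a replicate block, edgeR called 0 of the 20 in interferon-high cells, where it called 0 of 13749 genes. It called 10 of the 20 lower in interferon-low cells, where it called 376 of 15875 genes lower. The labels do not say that a shared replicate number marks a shared animal or batch.

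Of the same list, Iigp1, Gbp5, Gbp8 and Cd274 were picked after their values were seen. Iigp1 stood at 499 and 426 CPM against 779 and 615 CPM (-0.59, edgeR adjusted p = 0.347, DESeq2 adjusted p = 0.00909). Gbp5 stood at 48.8 and 45.8 CPM against 68.6 and 69.7 CPM (-0.54, DESeq2 adjusted p = 0.0506). Gbp8 stood at 95.2 and 96.5 CPM against 120.0 and 123 CPM (-0.34, DESeq2 adjusted p = 0.205), and Cd274, which encodes the checkpoint ligand PD-L1, at 53.9 and 54.3 CPM against 75.7 and 65.1 CPM (-0.38, DESeq2 adjusted p = 0.459). DESeq2 thus called Iigp1 and not the other 3. For each of these 4 genes both BPTES libraries were below both DMSO libraries. Their log2 fold changes in interferon-low cells were -0.75, -0.66, -0.28 and -0.49. With no filter on low counts, edgeR called 483 of 21631 genes in interferon-high cells, among them Irf1 and these 4 genes. It called 6 genes of this list lower there. In the main fit and the other edgeR settings that kept all 4 libraries it called 0 of the list.

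Other lists gave these counts in interferon-high cells, where both BPTES libraries lay below both DMSO libraries for 22.9% and above for 23% of all genes. Of 20 class I genes 15 were negative (median -0.11), and 8 lay below and 3 above, with H2-K1 at -0.19 and B2m at -0.15. Of 13 receptor and signalling genes 7 lay below and 1 above, and of 16 immediate early genes 8 below and 1 above (median -0.25). Of 18 genes of glutamine metabolism and transport 1 lay below and 5 above (median 0.03). Glul, the gene of glutamine synthetase, had a log2 fold change of -0.08. Of 13 ATF4 target genes 2 lay below and 5 above (median 0.14). Cdkn1a had a log2 fold change of -0.10, and Cdkn2a, with 13 UMIs in all interferon-high cells, was not tested. Of 7 B and plasma cell markers 6 were negative (median -0.84), as were 7 of 8 in interferon-low cells (median -1.20). Epithelial markers went apart in the 2 states: 8 of 11 were negative in interferon-high cells (median -0.28), and 11 of 12 were positive in interferon-low cells (median 1.64), where 10 had an unadjusted p under 0.05 (19.1% of all genes) and 9 lay above and 1 below. Their summed level in interferon-low cells was 1621 and 3263 CPM with BPTES and 1205 and 589 CPM with DMSO. Of the other lineage lists, 8 of 12 myeloid markers were positive (median 0.19) and 10 of 12 fibroblast, muscle and pericyte markers negative (median -0.22) in interferon-low cells. The part of these markers in the results was not tested.

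The genes of smallest p in interferon-high cells, none of them called by edgeR, had an adjusted p of 0.347. DESeq2, which called 0.495% of all genes, called 8 of these 10 genes, but they were picked by their p on the same counts. Its adjusted p was 4.21e-07 for Trim69 and 5.36e-06 for Ripk1, and it did not call Ccdc117 (0.134) and Nus1 (0.156). Trim69, a RING finger gene, stood at 54.3 and 59.0 CPM with BPTES and 103 and 112 CPM with DMSO (log2 fold change -0.93). Ripk1, a kinase of cell death and inflammation, stood at 301 and 296 CPM against 434 and 428 CPM (-0.53). Cldn12, 4930403P22Rik and Majin had log2 fold changes of -0.80, -0.90 and -0.92. On the higher side, the glucocorticoid-induced gene Tsc22d3 stood at 80.9 and 82.6 CPM against 46.0 and 49.9 CPM (0.77) and the Notch target Hes1 at 219 and 248 CPM against 154 and 149 CPM (0.62). Klf10, Ccdc117 and Nus1 had log2 fold changes of 0.85, 0.70 and 0.44. These 10 genes had the same sign in interferon-low cells, with Trim69 at -0.91 and Tsc22d3 at 0.75.

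The difference of the BPTES effect between the 2 states was tested itself. By edgeR 0 of 15694 genes (0%) were called, 725 (4.62%) had an unadjusted p under 0.05, and 7 (0.0446%) were called by DESeq2. The median difference over 48 type I genes, whose levels the rule in part sets in both states, was 0.15, with 6 negative, against -0.01 over all genes. It was 0.07 over the 20 GTPase and Irf1 genes and 0.03 over the 20 class I genes. Over 12 epithelial markers it was -1.67, with 12 negative and 3 at an unadjusted p under 0.05, and their part in the other differences was not tested. Over 16 immediate early genes the median difference was -0.13, with 14 negative. Of these 16 genes 10 had an unadjusted p under 0.05, as had 19 of the 48 type I genes and 4 of the 20 GTPase and Irf1 genes, against 4.62% of all genes. Among the genes fixed for this comparison the smallest p-values were those of Cdkn1a (difference -0.25, edgeR adjusted p = 0.851) and Stat2 (0.23, adjusted p = 0.865).

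**Figure D5:**
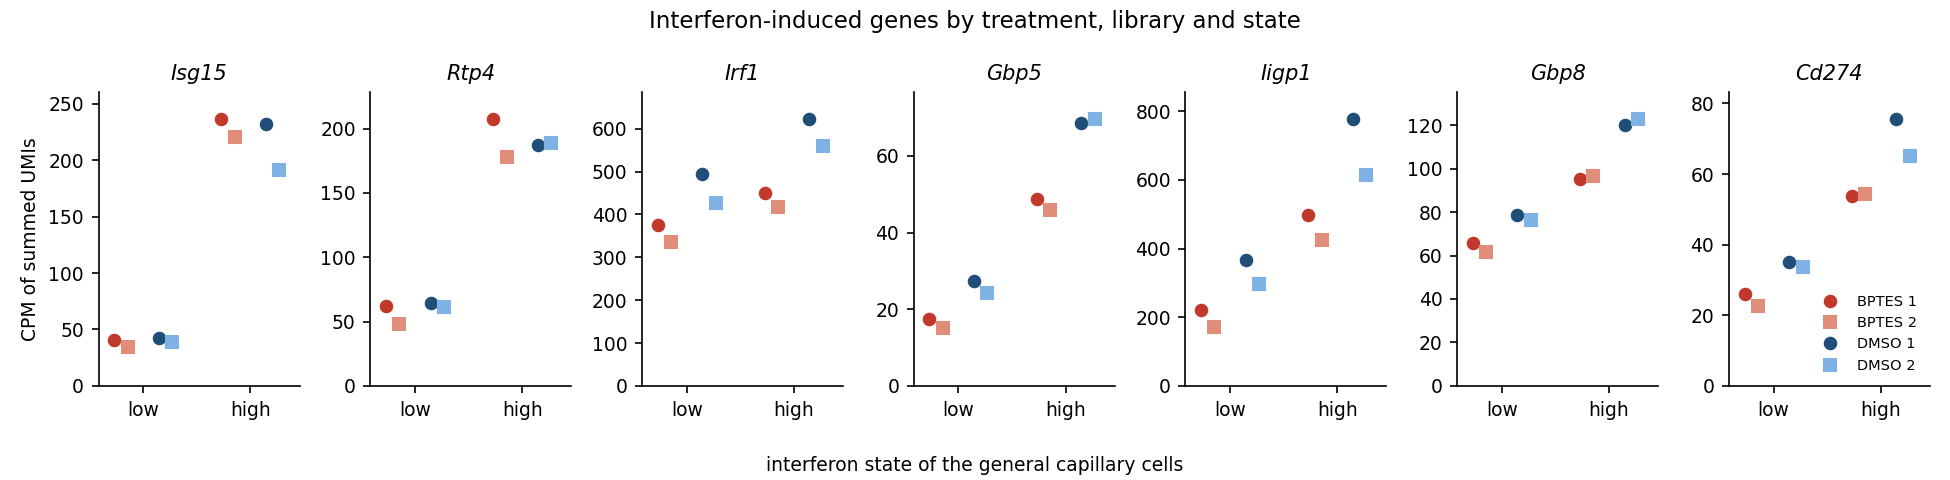
Levels in CPM of interferon genes in interferon-high and interferon-low cells of the BPTES and DMSO libraries. Each point is 1 library. For Irf1 and Iigp1 both BPTES points lie below both DMSO points in interferon-high cells (451 and 416 against 623 and 560 CPM for Irf1), while for Isg15 the groups overlap there. Of all genes tested 22.9% lay below in this way, and edgeR called neither Irf1 nor Iigp1 (adjusted p = 0.347 for each). Iigp1, Gbp5, Gbp8 and Cd274 were picked after their values were seen.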

How the data were processed

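UMI counts per gene and barcode were deposited by the authors for each of the 4 libraries as filtered matrices made with Cell Ranger 8.0.1, per the file headers, and mm10 is named in the submitters' processing notes. Barcodes with at least 500 genes, 1000 UMIs and at most 10% mitochondrial UMIs were kept, and the gates given in the report were applied to raw counts. No doublet caller was run; barcodes with markers of another lineage were left out in alternatives. The members, gene lists and tests were chosen with earlier results of these data known.

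Counts were summed per library and state, and the 18 genes used by the gates were left out of the tests and the adjustment. They stayed in the library sizes, the normalization and the dispersion estimates. The state comparison had the library as a block, and the treatment comparisons had none. edgeR 4.0.16 with limma 3.58.1 in R 4.3.3 (filterByExpr, TMM, quasi-likelihood test, Benjamini-Hochberg adjustment over all genes tested) gave the calls at an adjusted p under 0.05, and DESeq2 1.42.0 was an alternative. Levels are CPM on TMM-scaled library sizes. The exceptions are the summed levels of other-lineage markers and the list sums over all general capillary cells, which are CPM on total UMIs without TMM. Shares were compared with exact two-sided permutation tests over libraries, and exact binomial intervals (95%) cover counting error only. To equalise depth, UMIs were thinned to 3000 per cell. Python 3.11.15, numpy 2.4.6, scipy 1.17.1, pandas 2.3.3 and matplotlib 3.10.9 were used.

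The text names at most 12 calls in each direction, those of greatest absolute log2 fold change with a mean of at least 20 CPM in the higher state and 1 direction over the 4 libraries, and at most 4 calls of each list. For the treatment they were the 5 genes per direction of smallest p with the same minimum, where fewer than 5 were called, and a fixed set of genes, some of which are not reported here. The state comparison was tested on simulated counts of 15430 genes, with changes planted only in genes with a mean above 20 CPM. It recovered 100% of 67 changes of 1.5-fold, 67 of 2-fold and 66 of 4-fold, with 25 false calls. The simulated libraries shared the same mean for each gene apart from the planted changes, so differences between libraries were not simulated. Promoter sequences came from RefSeq (GRCm38.p6). Alternatives changed the filter, the normalization, the tool, the threshold of 3 genes, the depth range, the doublet rule, the block and the libraries included.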

Additional observations from a re-analysis of the deposited data

Results flagged for a closer look

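The log2 ratio of interferon-high to interferon-low levels was checked in 24 named genes for a library that stood apart from the other 3. The gap from the highest library to the nearest other, divided by the range over the 4 libraries, was 0.980 for Mgll, the monoacylglycerol lipase gene, and 0.883 for Ntrk2, the gene of a neurotrophin receptor. Both exceed the 95% limit of Dixon's test for 4 values, 0.829, which chance alone passes in about 1 in 20 groups. Mgll had log2 ratios of -0.38, -0.38, -0.37 and -0.14, and the library apart was DMSO 1. Ntrk2 had log2 ratios of -0.41, -0.38, -0.37 and -0.07, and the library apart was BPTES 1. In both genes the 4 ratios were below 0, and the library apart had the smallest decrease.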

How the results depend on the processing

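The BPTES minus DMSO difference in the interferon-high share was -1.34 to -0.24 percentage points under the settings at 3 of 5 genes, -4.80 at 2 of 5, -0.53 at 4 of 5 and -5.51 to 4.82 when 1 library was left out, above 0 without BPTES replicate 2 (4.82) and without DMSO replicate 2 (1.86). Against aerocytes the difference of general capillary cells was -1.44 points without thinning, and against venous cells -0.14 at 4 of 5 genes. In place of 417, the calls between states numbered 653 with no filter on low counts, 958 at 2 of 5 genes, 787 against cells with 0 of 5, 117 with marker doublets left out, 708 with barcodes of 10 UMIs of 2 other-lineage markers left out (chosen after seeing the data), 153 with no replicate block, and 243 (without DMSO 1) to 332 without 1 library. For BPTES in interferon-high cells, in place of 0 there were 68 with DESeq2, 483 with no filter, 1 without marker doublets, 2 without those barcodes and 0 to 41 without 1 library. In interferon-low cells there were 509, 210 and 41 under the first 3 of these and 0 to 459 without 1 library. The difference of effects gave 7 with DESeq2, 38 with no filter, 1 at 4 of 5 genes, 1 in cells of 10000 to 30000 UMIs and 1 to 7 without 1 library. The cause of these moves was not tested.

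The labels do not say that a shared replicate number marks a shared animal or batch. Deviations of same-numbered libraries had a correlation of -0.13 in interferon-high and 0.20 in interferon-low cells over 2 pairs. With a replicate block, BPTES gave 0 calls in interferon-high and 1040 in interferon-low cells.

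Of the 417 calls between states, 26 turned sign in cells of 10000 to 30000 UMIs, 24 without marker doublets, 26 without the other-lineage barcodes and 1 each at 2 and 4 of 5 genes. Among the named genes, log2 fold changes between states turned sign for Cspg4 (0.029 at 2 of 5 genes), Pdgfra (-0.30 in cells of 10000 to 30000 UMIs, -0.44 without the other-lineage barcodes), and, without marker doublets, Plat (0.11) and Sox17 (0.055). For BPTES in interferon-high cells they turned for Glul (0.0093 at 2 of 5), Stat2 (0.040 at 4 of 5, 0.050 at 10000 to 30000 UMIs, 0.021 without the other-lineage barcodes), Usp18 (0.015 at 10000 to 30000 UMIs) and Ifit2 (0.10 without the other-lineage barcodes). Without marker doublets they turned for Isg15 (-0.13), Ifit2 (0.27), Irf7 (-0.10), Bst2 (-0.11), Rtp4 (-0.12), Cxcl10 (0.91) and Glul (0.31), and in interferon-low cells for Ifit2 (0.12). Without 1 library the ranges that crossed 0 in interferon-high cells were Cxcl10 -2.23 to 0.31, Glul -0.21 to 0.047, Ifit2 -0.16 to 0.056, Irf7 -0.18 to 0.29, Isg15 -0.014 to 0.26, Rsad2 -0.47 to 0.071, Rtp4 -0.073 to 0.15, Stat2 -0.060 to 0.064 and Usp18 -0.23 to 0.088. In interferon-low cells they were Bst2 -0.026 to 0.14, Cxcl10 -0.91 to 0.30, Ifit2 -0.29 to 0.032, Irf7 -0.54 to 0.16, Isg15 -0.23 to 0.0031 and Rsad2 -0.82 to 0.045.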

Other observations

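Levels of interferon-induced genes over all cells of a type differed in order from gene to gene. Iigp1 stood at 562 CPM ± 177 in venous cells, 343 ± 105 in general capillary cells, 251 ± 69.4 in arterial cells and 39.7 ± 7.61 in aerocytes (SD, n = 4 libraries), and in each library aerocytes were lowest. Gbp5 was also lowest in aerocytes, at 5.15 CPM ± 0.819 against 30.3 ± 7.98 in general capillary cells. Of 3 type I genes read this way, Isg15 and Irf7 were lower in aerocytes than in general capillary cells in 4 of 4 libraries, at 66.4 CPM ± 18.3 against 83.4 ± 12.2 and 20.5 CPM ± 5.78 against 24.5 ± 5.87. Rtp4 was higher in aerocytes in 4 of 4 libraries, at 105 CPM ± 19.9 against 91.5 ± 14.0. These genes were picked after their values were seen, and the differences were not tested.

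The 15 Ifnb1 UMIs in the 68675 kept cells were all in 1 interferon-high cell of DMSO 2, a cell singled out after its values were seen. It had 12551 UMIs in all, with 243 of Rsad2, 109 of Ifit3, 88 of Isg15, 54 of Cxcl10 and 10 of Ccl5. It had UMIs of all 5 interferon genes of the rule, 2 UMIs of Cdh5, 0 of Gpihbp1 and 0 of Ptprc.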
